A study of Mus musculus with 12 samples.

Results

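The 10 genes described here are mouse astrocyte genes: Gfap, Vim, Serpina3n, Cd44, Osmr and Steap4, which are used as marks of reactive astrocytes, and Aqp4, Gja1, S100b and Aldh1l1, which resting astrocytes express. They were chosen by symbol from the 54838 genes counted in 12 bulk RNA-seq libraries, and all 10 passed the filter on low counts together with 31109 genes in all. The libraries were made from spinal cord of mice of either sex at postnatal day 60, from cells enriched for the oligodendroglial lineage on a Percoll gradient without a sort. Control mice were Olig1+/+;Tet1fl/fl and mutants were Olig1cre/+;Tet1fl/fl, so that both carried the floxed Tet1 alleles and the recombinase, expressed from the Olig1 locus, distinguished them; its target was OLIG1+ cells of the oligodendrocyte lineage. Each genotype had 3 libraries of unlesioned cord and 3 libraries taken 4 days after lysolecithin, a detergent-like lipid that strips myelin, was injected into the ventrolateral white matter (4dpl). The unlesioned tissue came from the side opposite to the lesion according to the study, so it was not from an uninjured animal.

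Astrocytes respond to demyelination by reactive gliosis, in which intermediate filament proteins such as GFAP and vimentin accumulate and secreted and receptor proteins are induced. Cytokines that signal through the shared receptor subunit gp130, encoded by Il6st, are among the inducers and act through the transcription factor STAT3; the oncostatin M receptor encoded by Osmr is a partner of gp130. Resting functions include water transport at the endfeet that line vessels, coupling through gap junctions and folate metabolism. Several of the 10 genes are also expressed elsewhere: S100b by oligodendroglia, Vim and Cd44 by macrophages and other mesodermal cells, Serpina3n by oligodendrocytes of injured tissue and Gja1 by ependymal cells.

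Total counts ran from 34805086 to 67251544 per library, and the 10 genes held between 0.0819% and 0.146% of them. Values are given as CPM, counts relative to the size of the library after scaling by trimmed mean of M-values (TMM) factors, which were 0.806 to 0.932 at 4dpl and 1.14 to 1.30 in unlesioned libraries other than control unlesioned replicate 1, at 0.881. That library also had the highest summed level of 6 markers of monocyte-derived macrophages among the 12, at 2499 CPM. The 9 genes used to check for astrocytes (Gfap and the 4 resting genes with Slc1a2, Slc1a3, Aldoc and Fgfr3) exceeded 1 CPM in every library and summed to between 376 and 1143 CPM, against 13720 to 62340 CPM for 6 oligodendrocyte markers. By astrocyte sum the lowest library, mutant unlesioned replicate 3, had S100b at 142 CPM and Aldoc at 88.0 CPM. The highest, mutant 4dpl replicate 3, had them at 521 and 272 CPM. Since oligodendroglia also express S100b, the sum does not measure astrocytes alone. Tet1 was at 15.03, 14.94 and 18.3 CPM in control unlesioned replicates 1 to 3 and at 16.4, 9.94 and 12.1 CPM in the mutant ones. At 4dpl it was at 12.5, 11.7 and 12.04 CPM in control and at 13.4, 10.9 and 21.5 CPM in mutant libraries. These levels overlapped between genotypes in unlesioned cord, and since the count covers all exons of the gene while exon 4 is the floxed one, they do not check the genotype labels; libraries are therefore called control-labelled and mutant-labelled. The study's methods speak of biological replicates, but the labels do not tie a library to an animal, and p-values measure the spread between these libraries.

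Windows before the RefSeq start sites (GRCm38.p6) are shown for the 3 genes that passed the test in the average of both genotypes, since they can be read beside the cytokine pathway genes below. RefSeq promoters were matched for 9 of the 10 genes. Each was searched from 250 bases before to 50 bases after the start for the STAT motif TTCNNNGAA and the AP-1 motif TGANTCA, which read the same on both strands and do not overlap each other in these windows. Capitals mark a match.
Gfap, chr11:102897194-102897450, minus strand: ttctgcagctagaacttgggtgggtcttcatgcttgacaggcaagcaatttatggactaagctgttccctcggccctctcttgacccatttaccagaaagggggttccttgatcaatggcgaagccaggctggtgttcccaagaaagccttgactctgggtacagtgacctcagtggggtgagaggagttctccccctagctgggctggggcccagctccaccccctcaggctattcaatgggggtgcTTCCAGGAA
Serpina3n, chr12:104406458-104406707, plus strand: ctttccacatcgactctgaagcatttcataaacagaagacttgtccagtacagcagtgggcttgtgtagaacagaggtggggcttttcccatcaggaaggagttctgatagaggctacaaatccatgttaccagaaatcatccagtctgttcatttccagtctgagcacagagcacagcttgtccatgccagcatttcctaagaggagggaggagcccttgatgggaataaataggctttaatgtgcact
Osmr, chr15:6874314-6874563, minus strand: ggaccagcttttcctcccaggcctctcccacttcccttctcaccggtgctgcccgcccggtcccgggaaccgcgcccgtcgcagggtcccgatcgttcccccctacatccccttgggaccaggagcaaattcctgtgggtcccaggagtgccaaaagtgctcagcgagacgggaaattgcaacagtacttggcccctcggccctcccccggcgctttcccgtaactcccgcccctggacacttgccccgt
The Gfap window ends with the STAT letters, which ran from position -2 to position 7 about the start. The Serpina3n window held no match. Osmr had no match before the start and held the AP-1 letters from position 4 to position 10, past the end of what is printed. Among the other members Steap4 held the STAT letters at positions -116 to -108 and Gja1 the AP-1 letters at positions -19 to -13. The STAT letters stood in 8.3% and the AP-1 letters in 7.8% of the 32851 promoters of this length, so 2 of 9 members with each motif is a description of letters and not of binding.

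The first question was how the 10 genes differed between lesioned and unlesioned cord in each genotype. In control-labelled libraries Gfap, Serpina3n and Gja1 rose and Osmr fell; in mutant-labelled libraries Serpina3n rose; and in the average of both genotypes Gfap and Serpina3n rose and Osmr fell. A gene was called when edgeR's quasi-likelihood test gave p below 0.01 and a Benjamini-Hochberg adjusted p below 0.05 over all 31109 genes. The 3 rises among 10 members in control stood beside 5.12% of all genes called up, and the single fall beside 5.01% called down. In the mutant-labelled comparison few genes of any kind passed, 0.0225% up and 0.113% down, and the 1 member up is read against that. In the average, which has 6 libraries on each side, 2 members rose where 14.2% of all genes did and 1 fell where 18.6% did. The median log2 fold change over all genes was below 0 in each case (-0.36 in control, -0.175 in mutant and -0.284 in the average), against medians of 0.70, 0.30 and 0.55 for the 10 members. With size factors from relative log expression the medians over all genes were -0.42, -0.316 and -0.384.

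**Figure D1:**
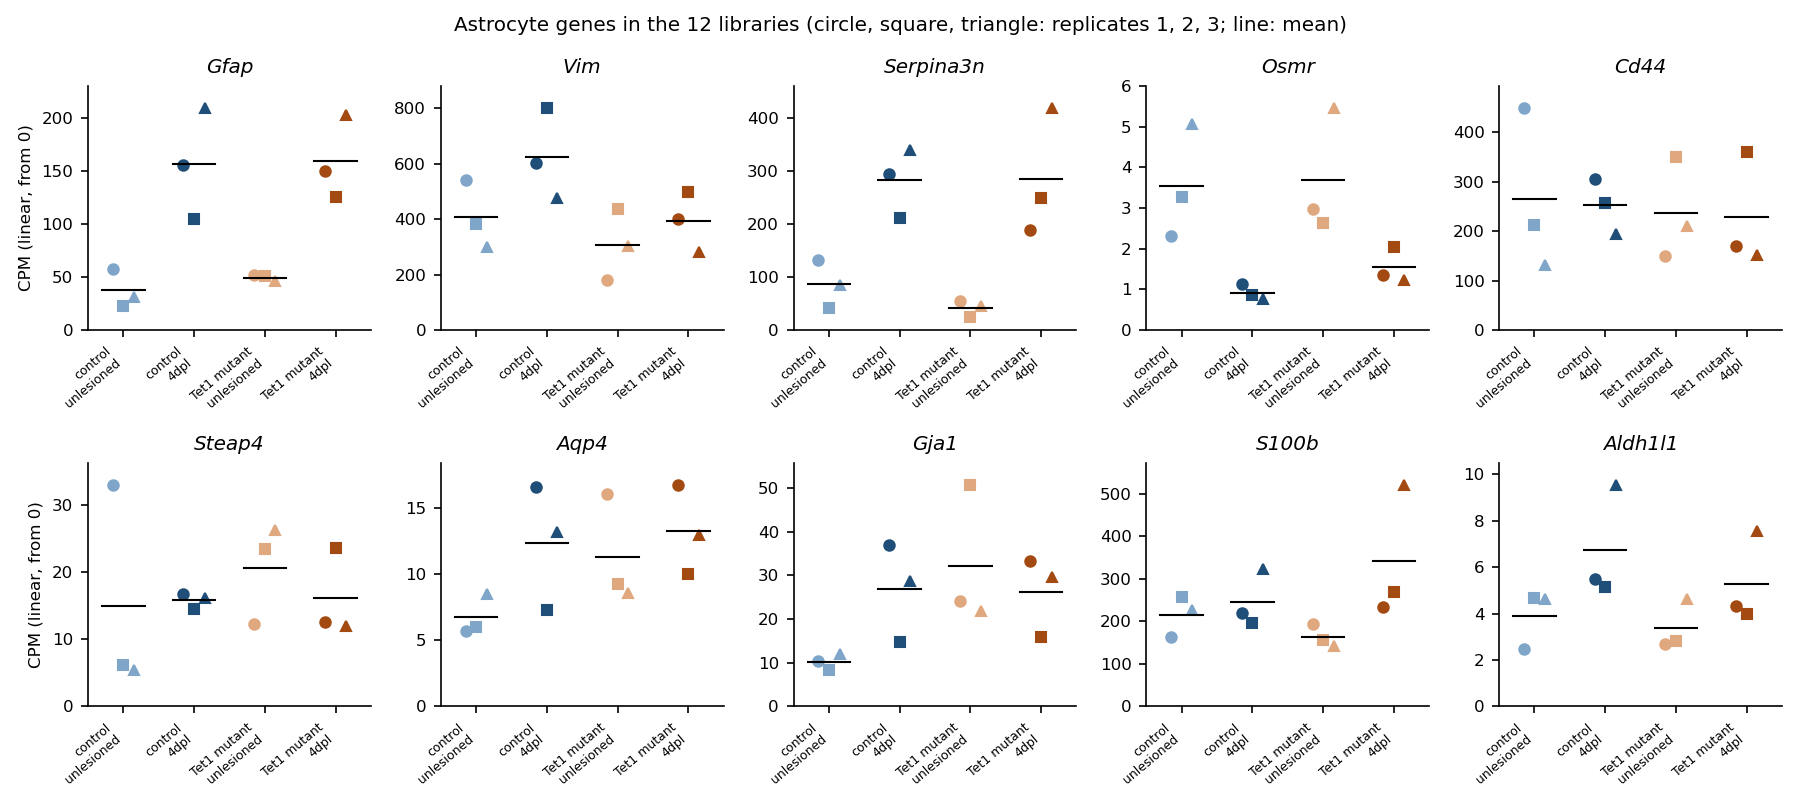
Each panel plots the CPM of 1 gene on a linear axis from 0, with 1 point per library in each of the 4 groups and a line at the group mean. Gfap and Serpina3n lie higher in every 4dpl library than in any unlesioned library of the same genotype and Osmr lies lower, while the groups of Cd44 and Vim overlap.

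The log2 fold changes carry standard errors of 0.32 to 0.55 in each genotype. By the order of single libraries, 4 of the 10 genes (Gfap, Serpina3n, Gja1 and Aldh1l1) had all 3 control 4dpl values above all 3 control unlesioned values, and 1 (Osmr) had all below; over all genes 16.5% were separate upwards and 21.4% downwards. In mutant-labelled libraries 3 genes (Gfap, Serpina3n and S100b) were separate upwards where 18.8% of all genes were, and Osmr again was separate downwards where 23.2% were.

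**Figure D2:**
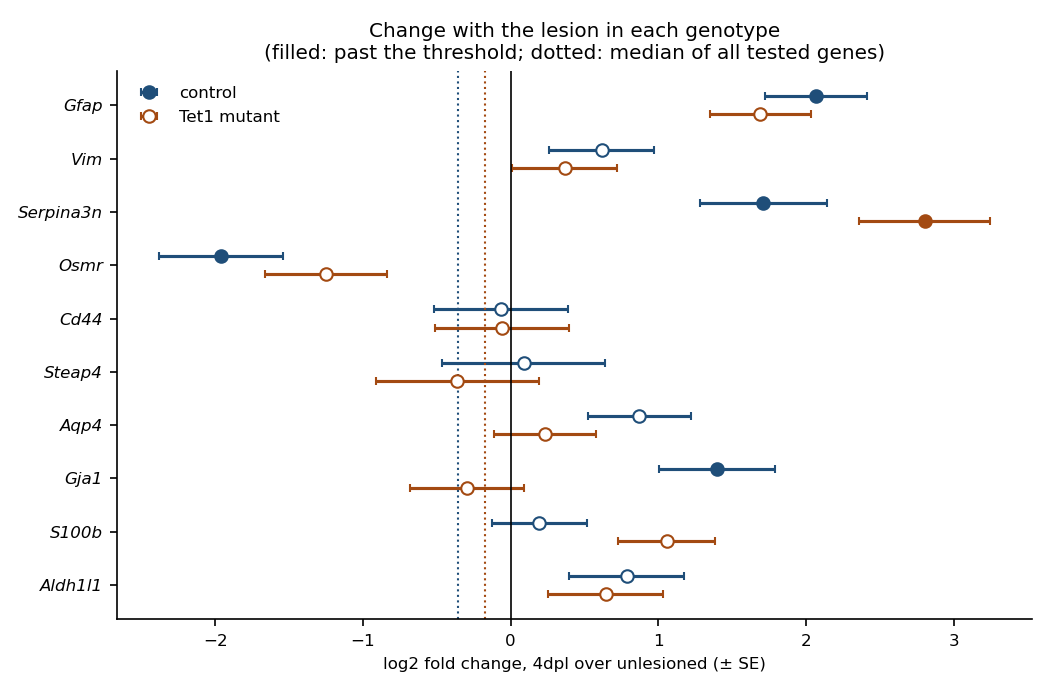
Points are log2 fold changes of 4dpl over unlesioned with bars of 1 standard error, blue for control-labelled and brown for mutant-labelled libraries, filled where the gene passed the test; dotted lines mark the median of all genes in each genotype. Gfap and Serpina3n lie to the right in both genotypes and Osmr to the left, and Gja1 lies at 1.40 in control and -0.29 in mutant.

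Gfap (ENSMUSG00000020932, chromosome 11, 102887336 to 102900912, GRCm38) encodes the glial fibrillary acidic protein, the filament by which astrocytes are most often recognised. It was at 57.9, 22.9 and 31.1 CPM in the control unlesioned replicates and at 155, 105.0 and 209 CPM at 4dpl. In mutant-labelled libraries it was at 51.8, 50.5 and 45.9 CPM unlesioned and at 150.3, 126 and 203 CPM at 4dpl. Every lesioned library therefore lay above every unlesioned one of either genotype. The mean went from 37.3 ± 18.3 to 157 ± 52.2 CPM (SD, n = 3) in control, a log2 fold change of 2.07 (SE 0.35, edgeR adjusted p = 0.0214). In mutant it went from 49.4 ± 3.12 to 159.6 ± 39.4 CPM, with a log2 fold change of 1.69 (SE 0.34) whose edgeR adjusted p of 0.0522 missed the threshold. The average over genotypes was 1.88 (SE 0.24, edgeR adjusted p = 0.0019), which was called in each of 12 fits without 1 library, with values from 1.76 to 2.14. The mutant value was called without control unlesioned replicate 1 (adjusted p = 0.0314) and without mutant unlesioned replicate 1 (adjusted p = 0.0332) in edgeR. In mutant the first of these fits called 2615 genes up and 1883 down and the second 2135 up and 1295 down. With all libraries 7 genes were called up and 35 down. In a bulk library more astrocytes and more RNA per astrocyte cannot be told apart, here or for any other gene.

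Set against the mean log2 level of the 4 resting genes in the same library, Gfap stood 0.49 to 2.12 above it in control unlesioned and 2.36 to 2.64 above it in control 4dpl libraries. In mutant-labelled libraries the difference was 1.17 to 1.24 unlesioned and 2.40 to 2.56 at 4dpl. The 4dpl and unlesioned ranges did not overlap in either genotype. For Serpina3n the difference was 1.33 to 3.30 in control unlesioned and 3.28 to 3.48 in control 4dpl libraries, ranges that overlapped, and 0.10 to 1.28 and 2.73 to 3.54 in the mutant-labelled groups, ranges that did not. Osmr stood below the resting genes, at a mean difference of -2.05 unlesioned and -4.27 at 4dpl in control and of -2.42 and -3.80 in mutant, without overlap in either. The ranges of Vim, Cd44 and Steap4 overlapped between conditions in both genotypes, and none of these differences was tested.

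Vim (ENSMUSG00000026728, chromosome 2, 13573927 to 13582826) encodes vimentin, the filament that copolymerises with GFAP in reactive astrocytes. It was at 540.5, 384 and 300.5 CPM in control unlesioned and 602, 801 and 475 CPM in control 4dpl libraries. The mutant-labelled libraries had 180, 435 and 301 CPM unlesioned and 399, 499 and 282 CPM at 4dpl. The groups overlapped in both genotypes, and the log2 fold changes of 0.62 (SE 0.36) and 0.36 (SE 0.35) did not pass, with edgeR adjusted p = 0.228 and 0.469. The average of 0.49 (SE 0.25) did not pass in edgeR (adjusted p = 0.125) but was called by limma voom (0.63, adjusted p = 0.0137). Of the other filament genes Nes, Synm and Plec, which encode nestin, synemin and the linker plectin, 0 of 3 passed in the average in edgeR. Of the 3, 1, Nes, had an unadjusted p under 0.05. Their log2 fold changes were 0.80, 0.30 and 0.01, with a median of 0.30. Over all genes 14.2% were called up and 18.6% down in the average, and 52% had an unadjusted p under 0.05.

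Serpina3n (ENSMUSG00000021091, chromosome 12, 104406729 to 104414329) encodes a secreted serine protease inhibitor. Its control unlesioned levels were 132, 41.3 and 84.9 CPM and its control 4dpl levels 295, 212 and 339 CPM. In mutant-labelled libraries it was at 53.8, 23.8 and 44.9 CPM unlesioned and at 189, 249 and 418 CPM at 4dpl. No lesioned library came down to the highest unlesioned one. The log2 fold change was 1.71 in control (SE 0.43, edgeR adjusted p = 0.0355) and 2.80 in mutant (SE 0.45, edgeR adjusted p = 0.0445). The average was 2.26 (SE 0.31, edgeR adjusted p = 0.00204) and was called in all 12 fits without 1 library. The mutant call was lost without any of control 4dpl replicate 2, mutant unlesioned replicates 2 and 3 and mutant 4dpl replicates 1, 2 and 3, where edgeR adjusted p ran from 0.0587 to 0.162 and the log2 fold change from 2.44 to 3.06. In each of those fits 0 genes of the whole table were called up in mutant. The number called down was 1 without control 4dpl replicate 2 and 0 in the others. The unadjusted edgeR p of Serpina3n in them ran from 1.3e-05 to 0.00014.

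Osmr (ENSMUSG00000022146, chromosome 15, 6813577 to 6874969) encodes the oncostatin M receptor subunit that pairs with gp130, and it was the member that fell. It had 123, 154 and 260 counts in the control unlesioned libraries, or 2.31, 3.27 and 5.08 CPM, and 64, 49 and 33 counts at 4dpl, or 1.12, 0.85 and 0.76 CPM. The mutant-labelled libraries had 2.98, 2.62 and 5.46 CPM unlesioned and 1.36, 2.04 and 1.24 CPM at 4dpl. All lesioned values were below all unlesioned values. The control mean went from 3.55 to 0.91 CPM, a log2 fold change of -1.96 (SE 0.42, edgeR adjusted p = 0.0267). The mutant value of -1.25 (SE 0.41) had an edgeR adjusted p of 0.0751. The average was -1.61 (SE 0.30, edgeR adjusted p = 0.00348), called in all 12 fits without 1 library and lying beyond the median of all genes at -0.284.

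No other tested gene of the gp130 pathway passed the test in the direction of Osmr. Of 15 listed ligands, receptors and signalling genes 14 were tested, 4 rose in the average and 0 fell, where 14.2% of all genes were called up and 18.6% down, with a median log2 fold change of 0.38 against -0.284 for all genes. The rises were those of Il11ra1, the interleukin 11 receptor (0.70), Tyk2, a Janus kinase (0.81), Socs3, the feedback inhibitor induced by STAT3 (0.84), and Il6st, the gp130 partner itself (0.95), with edgeR adjusted p from 0.0106 to 0.0247. Il6st was chosen for naming after its value was seen. Socs3 was at 365, 146 and 269 CPM in control unlesioned and 384, 660.0 and 545 CPM in control 4dpl libraries. In each genotype taken alone 0 of the 14 passed the test. Of all genes 5.12% were called up and 5.01% down in control, and 0.0225% and 0.113% in mutant. The ligand Osm, also named after its value was seen, went from 217 ± 164 to 210 ± 35.8 CPM (SD, n = 3) in control and from 139 ± 53.5 to 202 ± 138 CPM in mutant, and its average log2 fold change of 0.24 (SE 0.36) had an edgeR adjusted p of 0.604.

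Cd44 (ENSMUSG00000005087, chromosome 2, 102811141 to 102901665) encodes the cell surface receptor for hyaluronan and osteopontin. It was at 449, 212 and 132 CPM in control unlesioned and at 305, 257 and 194 CPM in control 4dpl libraries. The mutant-labelled values were 149, 351 and 211 CPM unlesioned and 170, 361 and 152 CPM at 4dpl. The range within each group spanned that between groups, and the log2 fold changes of -0.07 and -0.06 (SE 0.45 for both, edgeR adjusted p = 0.926 and 0.938) changed sign in several alternatives. In each of the 4 groups the library with the most Cd44 was the library with the highest summed level of the 6 macrophage markers (Arg1, Ccr2, F13a1, Ly6c2, Mrc1 and Ms4a7), and the library with the least Cd44 the one with the lowest. Those sums were 829 to 2499 CPM in control unlesioned, 906 to 1814 CPM in control 4dpl, 601 to 1781 CPM in mutant unlesioned and 713 to 1705 CPM in mutant 4dpl libraries. Vim shared the lowest library with them in 4 groups and the highest in 3, and their part in either gene was not tested.

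Of the genes that make, cut or share the ligands of CD44, 3 of 6 rose in the average and 0 fell, beside 14.2% of all genes called up and 18.6% called down. Spp1, which encodes osteopontin, rose from 2396, 262 and 2325 CPM to 16410, 11410 and 10880 CPM in control and from 587, 93.2 and 493 CPM to 10290, 6151 and 4080 CPM in mutant, for an average log2 fold change of 3.54 (SE 0.56, edgeR adjusted p = 0.00257). The hyaluronidase genes Hyal2 and Hyal1 rose by 1.498 and 1.133 on the log2 scale (edgeR adjusted p = 0.00348 and 0.00478). The synthase genes Has1 (-1.12), Has2 (0.935) and Has3 (-1.23) did not pass and differed in direction, with edgeR adjusted p = 0.0554, 0.0404 and 0.138. Has2 had an edgeR p of 0.0151, short of the threshold of 0.01. The list's median was 1.03.

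Steap4 (ENSMUSG00000012428, chromosome 5, 7960457 to 7982213) encodes a metalloreductase of iron and copper uptake. It was at 33.0, 6.22 and 5.45 CPM in control unlesioned and at 16.7, 14.6 and 16.2 CPM in control 4dpl libraries, so a single unlesioned library lay above all of the lesioned ones. The mutant-labelled values were 12.2, 23.5 and 26.2 CPM unlesioned and 12.6, 23.6 and 12.03 CPM at 4dpl. With all libraries the control log2 fold change was 0.09 (SE 0.55, edgeR adjusted p = 0.921). Without control unlesioned replicate 1 it was 1.47 (SE 0.36, edgeR adjusted p = 0.0154), a rise past the threshold, and the mutant value was -0.36 (SE 0.55) with all libraries. Without that replicate 7401 of 33892 genes were called in control, against 3150 with all libraries. The macrophage marker sum of that replicate was 2499 CPM, against 1110 and 829 CPM in the other control unlesioned libraries.

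Among the resting genes the levels per kilobase of exon were far apart. In control unlesioned libraries S100b was at 145 ± 32.5 CPM per kb, while Aqp4, Gja1 and Aldh1l1 were at 1.08 ± 0.24, 0.99 ± 0.18 and 0.87 ± 0.28 CPM per kb (SD, n = 3), 3 levels that did not differ beyond their spread. The order of the other members was Vim at 86.1, Serpina3n at 41.7, Cd44 at 39.0, Gfap at 8.84, Steap4 at 4.72 and Osmr at 0.29 CPM per kb. Serpina3n and Cd44, with SDs of 22.0 and 24.3, did not differ beyond their spread, nor did Gfap and Steap4, with SDs of 4.35 and 4.98.

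Aqp4 (ENSMUSG00000024411, chromosome 18, 15389496 to 15410982) encodes the water channel of astrocyte endfeet. It was at 5.73, 6.05 and 8.50 CPM in control unlesioned and at 16.6, 7.28 and 13.2 CPM in control 4dpl libraries. The mutant-labelled libraries had 16.1, 9.28 and 8.56 CPM unlesioned and 16.8, 10.1 and 13.02 CPM at 4dpl. The groups overlapped in both genotypes, with log2 fold changes of 0.87 (SE 0.35) and 0.23 (SE 0.34) and edgeR adjusted p = 0.100 and 0.64. The average of 0.55 was called without control 4dpl replicate 2 (0.71, adjusted p = 0.0365) and without mutant unlesioned replicate 1 (0.75, adjusted p = 0.0276) in edgeR. Of 5 genes of the complex that holds or neighbours the channel at the endfoot, Dag1, which encodes dystroglycan, and Trpv4, a cation channel, rose in the average by 1.25 and 1.33 on the log2 scale (edgeR adjusted p = 0.00395 and 0.00419), 0 fell, and the median was 0.31, while Dtna, which encodes dystrobrevin, was at 0.31 (adjusted p = 0.294). Over all genes 14.2% were called up and 18.6% down.

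Gja1 (ENSMUSG00000050953, chromosome 10, 56377330 to 56402513) encodes connexin 43, the main gap junction protein of astrocytes. It was at 10.3, 8.24 and 12 CPM in control unlesioned and at 37.1, 14.8 and 28.7 CPM in control 4dpl libraries, groups that did not overlap. In mutant-labelled libraries it was at 24.1, 50.8 and 21.9 CPM unlesioned and at 33.2, 16.0 and 29.7 CPM at 4dpl, groups that did. The log2 fold change was 1.40 in control (SE 0.39, edgeR adjusted p = 0.0439) and -0.29 in mutant (SE 0.39, edgeR adjusted p = 0.6). The test of the difference between the genotypes gave -1.69 (SE 0.55, edgeR adjusted p = 1), so it was not shown that the lesion acted differently in them. In all 4 groups the libraries with the most and the least Gja1 were those with the highest and lowest sum of 4 ependymal markers (Ccdc153, Foxj1, Rarres2 and Tmem212), which reached 209 CPM in mutant unlesioned replicate 2 and 23.2 to 123 CPM in the other libraries. None of those markers was at 0 in any library, and their part in the Gja1 values was not tested. Without that replicate the mutant log2 fold change was 0.21 and the average, 0.81, was called (edgeR adjusted p = 0.0299).

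S100b (ENSMUSG00000033208, chromosome 10, 76253853 to 76261159) encodes a calcium-binding protein. It was at 162, 257 and 227 CPM in control unlesioned and at 220, 197 and 322 CPM in control 4dpl libraries. The mutant-labelled values were 193, 157 and 142 CPM unlesioned and 234, 268 and 521 CPM at 4dpl. The control groups overlapped (log2 fold change 0.20, SE 0.32, edgeR adjusted p = 0.678), whereas the mutant groups did not (1.06, SE 0.33, edgeR adjusted p = 0.0677), and the difference between the genotypes, 0.86 (SE 0.46), had an edgeR adjusted p of 1. The library at 521 CPM had a sum of oligodendrocyte markers of 62340 CPM, against at most 32290 CPM elsewhere, and without it the mutant value was 0.64. Without control unlesioned replicate 1 the mutant value was 1.08 and was called (edgeR adjusted p = 0.0394). That fit called 2615 genes up in mutant, against 7 with all libraries. The average of 0.63 had an adjusted p of 0.0419 but a p of 0.0159 in edgeR, short of the threshold of 0.01, and it was called without mutant 4dpl replicate 1 (0.76, adjusted p = 0.0258) or replicate 2 (0.72, adjusted p = 0.0341).

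Aldh1l1 (ENSMUSG00000030088, chromosome 6, 90486427 to 90600203) encodes a folate enzyme that marks astrocytes broadly. It was at 2.46, 4.65 and 4.61 CPM in control unlesioned and at 5.51, 5.17 and 9.56 CPM in control 4dpl libraries, without overlap. In mutant-labelled libraries it was at 2.71, 2.83 and 4.64 CPM unlesioned and at 4.34, 4.00 and 7.55 CPM at 4dpl. The log2 fold changes of 0.79 and 0.64 (SE 0.39 for both) did not pass, and the average of 0.71 (SE 0.28) had an edgeR adjusted p of 0.0501, falling to 0.0412 with a call at 0.88 without mutant unlesioned replicate 3. It was also called with the replicate block (0.71, adjusted p = 0.0275) and without the filter on low counts (0.82, adjusted p = 0.0266) in edgeR. Exons of 2 other genes cover 2.3% and 11% of its exon bases, the larger share from the opposite strand, and since the strand setting of the counting is not given in the sources used here, reads of the pair cannot be told apart; the other 9 members share no exon bases.

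Of 16 further genes of resting astrocytes, 2 rose in the average and 0 fell, with a median log2 fold change of 0.26; in this contrast 14.2% of all genes were called up and 18.6% down, which is the background for each list in this paragraph. The rises were those of Acsbg1, an acyl-CoA synthetase (1.08, edgeR adjusted p = 0.0111), and Aldoc, the aldolase of astrocytes (0.92, edgeR adjusted p = 0.0114). Slc4a4, a bicarbonate transporter, was at -0.82 with an edgeR adjusted p of 0.0533. In other lists of reactive astrocyte genes the counts were also small. Of 7 pan-reactive genes beside the members, Hspb1, which encodes a small heat shock protein, rose (1.38, edgeR adjusted p = 0.00394), and Timp1 and Lcn2 were at 1.16 and -0.76 with adjusted p = 0.141 and 0.144, for a list median of 0.01. Of 12 genes called A1-type after their induction by inflammatory stimuli, Ggta1, a galactosyltransferase, rose (0.82, edgeR adjusted p = 0.012), Amigo2 and Psmb8 were at -0.76 and 0.23 with adjusted p = 0.155 and 0.322, and the median was 0.13. Of 12 genes called A2-type after their induction by ischaemia, Emp1, a membrane protein (2.68), Cd109 (0.87) and Clcf1, a gp130 ligand (0.62), rose, with edgeR adjusted p from 0.00293 to 0.0298 and a median of 0.49. No gene of these 4 lists fell in the average.

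**Figure D3:**
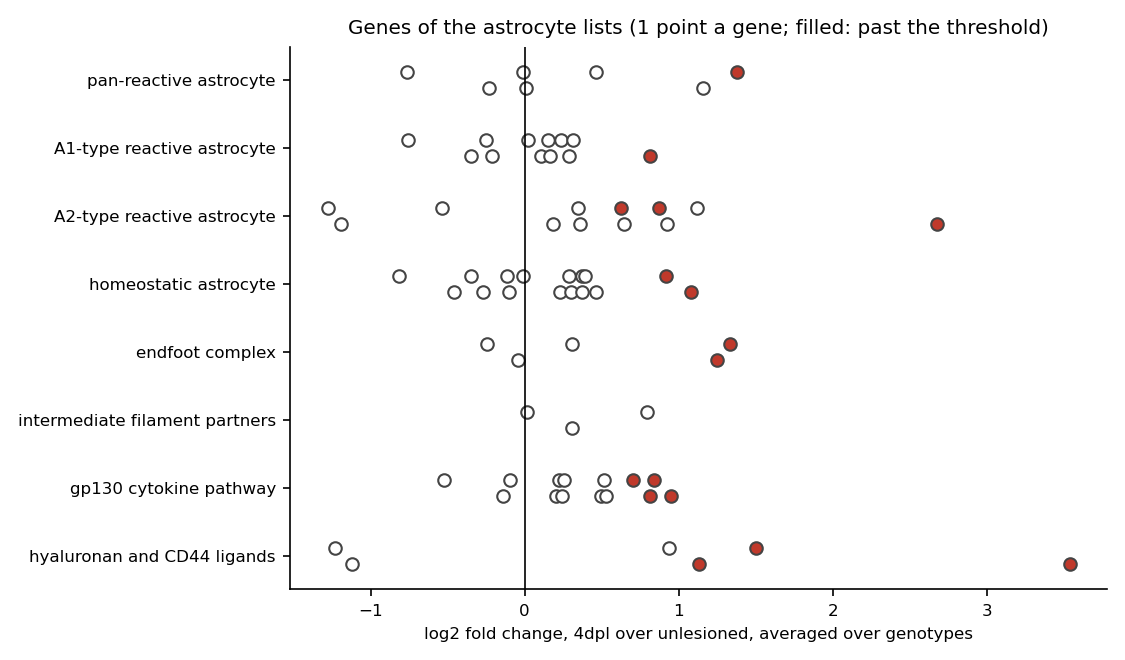
Each point is the log2 fold change of 1 gene, 4dpl over unlesioned averaged over the genotypes, in 8 lists of genes related to the members, filled where it passed the test. The points of the pan-reactive and A1-type lists lie around 0 with 1 gene each past the threshold, and Spp1 at 3.54 and Emp1 at 2.68 lie farthest to the right.

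The calls within control-labelled libraries depended on single libraries. Left out singly, control unlesioned replicates 2 and 3 and control 4dpl replicates 1 and 2 each removed all 4 member calls (edgeR adjusted p from 0.058 to 0.138), while the log2 fold changes kept their direction, at 1.83 to 2.31 for Gfap, 1.39 to 1.90 for Serpina3n, 1.11 to 1.71 for Gja1 and -2.11 to -1.60 for Osmr. In those 4 fits the number of genes called over the whole table was 1, 114, 4 and 2, against 3150 with all libraries. Without mutant unlesioned replicate 3 the calls of Serpina3n (edgeR adjusted p = 0.0536) and Gja1 (adjusted p = 0.0559) were lost, and without control 4dpl replicate 3 that of Gja1 (adjusted p = 0.0658). With DESeq2 in place of edgeR the mutant-labelled comparison called 4 members, Gfap, Serpina3n and S100b upwards where 4.28% of all genes were called up and Osmr downwards where 12.7% were called down.

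The preparations were mixed, and markers of other cell types moved with the lesion too. In the average all 8 microglial markers rose, with a median log2 fold change of 1.08, as did 3 of 6 macrophage markers, 2 of 6 oligodendrocyte markers, 3 of 5 progenitor markers and 2 of 6 mural and fibroblast markers, while 1 mural and fibroblast, 1 of 6 neuronal and 2 of 3 tested Schwann cell markers fell and 0 of 5 endothelial and 0 of 4 ependymal markers passed (edgeR; 0 of these 9 had an unadjusted p under 0.05), where 14.2% of all genes were called up and 18.6% down. Of all genes 52% had an unadjusted p under 0.05 in the average. Among the microglial markers were Cd68 (log2 fold change 1.97, edgeR adjusted p = 0.0021) and Aif1 (0.99, adjusted p = 0.00973). The macrophage markers that rose were Ms4a7 (3.12), Arg1 (2.94) and Mrc1 (1.48), with edgeR adjusted p from 0.00298 to 0.0155. The other macrophage markers, F13a1 (0.765), Ccr2 (0.297) and Ly6c2 (-0.915), did not pass, with edgeR adjusted p from 0.0617 to 0.437. The median macrophage sum was 1110 CPM in control unlesioned and 1518 CPM in control 4dpl libraries. In the mutant-labelled groups it was 1134 CPM unlesioned and 820 CPM at 4dpl. Of the oligodendroglial markers Mobp (1.17), Mbp (1.16), Cspg4 (1.49), Pdgfra (0.92) and Gpr17 (1.22) rose, with edgeR adjusted p from 0.00533 to 0.0206. Among stromal, neuronal and Schwann cell markers Col1a2 (1.60) and Col1a1 (1.55) rose and Dcn (-0.96), Syt1 (-1.15) and Prx (-1.69) fell, with edgeR adjusted p from 0.00337 to 0.0205. Nefl (0.64, adjusted p = 0.0422), Tubb3 (0.71, adjusted p = 0.0646) and Ncmap (-0.68, adjusted p = 0.111) did not pass in edgeR, nor did the endothelial genes Tek, Cdh5 and Flt1 (-0.83, -0.54 and -0.33) or the ependymal genes Foxj1, Ccdc153 and Rarres2 (0.41, -0.14 and 0.14). Microglial sums were 2545 to 5046 CPM in control unlesioned and 9390 to 14710 CPM in control 4dpl libraries, and 3043 to 8999 CPM in mutant unlesioned and 8969 to 13240 CPM in mutant 4dpl libraries. In each of the 4 groups the library with the most Gfap was also that with the most Serpina3n, the highest oligodendrocyte sum and the highest sum of progenitor markers, and the lowest Serpina3n was found with the lowest oligodendrocyte sum. The lowest Gfap was found with the lowest oligodendrocyte sum in 2 of 4 groups, with the lowest progenitor sum in 1 and with the lowest ependymal sum in 4, and the lowest Serpina3n with the lowest progenitor sum in 1. These pairings, and those of Cd44, Vim and Gja1 above, were picked from a comparison of every member with every marker list. With the astrocyte sum Gfap shared the highest library in 2 of 4 groups and the lowest in 3. Serpina3n shared them in 2 and 1, and Gja1 in 1 and 3. The oligodendrocyte sums were 14580 to 18430 CPM in control unlesioned and 21010 to 32290 CPM in control 4dpl libraries, and 13720 to 25300 CPM and 23310 to 62340 CPM in the mutant-labelled groups. No marker of these lists was at 0 in any group, and the part of any of these cell types in the members' values was not tested.

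**Figure D4:**
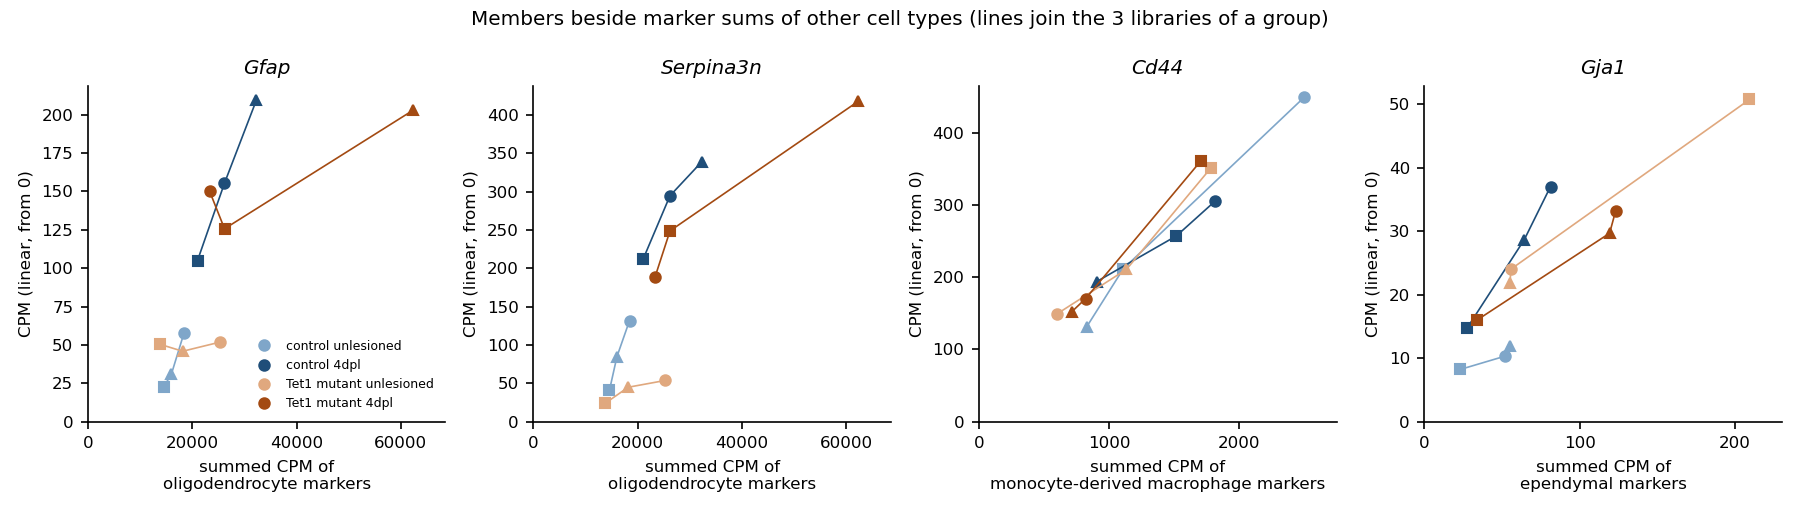
The CPM of Gfap, Serpina3n, Cd44 and Gja1 is plotted against the summed CPM of oligodendrocyte, macrophage or ependymal markers, both axes linear from 0, with lines joining the 3 libraries of a group and symbols for replicates 1 (circle), 2 (square) and 3 (triangle). Cd44 is higher where the macrophage sum is higher in all 4 groups, whereas the 4dpl points of Gfap and Serpina3n lie above the unlesioned points.

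The next question was whether the genotypes differed. In unlesioned cord 0 of the 10 members were called between mutant-labelled and control-labelled libraries by edgeR, as were 0% of the 31109 genes; 3 members (Gja1, Aqp4 and Serpina3n) had an unadjusted p under 0.05, where 5.22% of all genes did. Gja1 was higher in all 3 mutant-labelled libraries, at 32.2 against 10.2 CPM on average, with a log2 difference of 1.66 (SE 0.40, edgeR adjusted p = 0.693). DESeq2 called it (1.71, adjusted p = 0.0325), where it called 0.145% of all genes, and without mutant unlesioned replicate 2, the library with the highest ependymal sum, the edgeR value was 1.17. Aqp4 was also higher without overlap (0.74, SE 0.35, edgeR adjusted p = 0.95), and 4.09% of all genes were so separated. Serpina3n was lower, at 40.9 ± 15.4 against 86.0 ± 45.4 CPM (SD, n = 3), with a log2 difference of -1.07 (SE 0.42, edgeR adjusted p = 0.858), and its groups overlapped.

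At 4dpl edgeR called 0 of the 10 members and 0% of all genes, and 0 members had an unadjusted p under 0.05. DESeq2 called 0 members as well, where it called 0.73% of all genes. Gfap differed between genotypes by 0.03 (SE 0.33) and Serpina3n by 0.02 (SE 0.42) on the log2 scale, values that changed sign with the size factors. Osmr was higher in all 3 mutant-labelled 4dpl libraries, at 1.24 to 2.04 against 0.76 to 1.12 CPM, with a log2 difference of 0.76 (SE 0.42, edgeR adjusted p = 0.806), and 7.34% of all genes were separated in that direction. The lowest log2 difference was that of Vim at -0.67 (SE 0.36, edgeR adjusted p = 0.793). The change with the lesion itself was compared between genotypes by an interaction term, which called 0 members and 0% of all genes in edgeR and likewise 0 members and 0% of all genes in DESeq2; among the members Gja1 had the single unadjusted p under 0.05 in edgeR. Serpina3n had an interaction of 1.09 (SE 0.59, edgeR adjusted p = 1). Standard errors of the interaction ran from 0.46 to 0.78 on the log2 scale over the 10 members with 3 libraries a group.

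The genes whose log2 CPM was most like that of Gfap over the 12 libraries, among 10108 genes with a symbol and a mean log2 CPM of at least 3 that are not members, were Map4 (Pearson r = 0.979), Clpx (0.978), Pgrmc1 (0.977), Dctn6 (0.975) and Fam151b (0.975). With group means removed they were Arl5a (0.926), Map4 (0.922), Sgpp1 (0.92), Vezf1 (0.917) and Zdhhc1 (0.916). For Aldh1l1 they were Zfp938 (0.891), Pccb (0.876), Fahd2a (0.871), Pkp4 (0.868) and Ogfod3 (0.86), and with group means removed Ndrg4 (0.944), Dennd2a (0.941), Enah (0.912), Tnik (0.886) and Nefl (0.885). These values describe a ranking among many genes that share the libraries, their depth and their cell makeup.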

How the data were processed

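Libraries were prepared by the authors from about 10 ng of RNA and sequenced as 100 bp paired ends. The deposited files hold raw counts per gene, made by the authors with featureCounts from uniquely aligned reads on exons of the Ensembl GRCm38 release 100 annotation; the aligner is named as BWA in the study's methods and as STAR in the submitters' processing notes. Each file also gives exon length, used for CPM per kb. The strand setting is not given in the sources used here.

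Genes were named by Ensembl identifier (54723 of 54838 had a symbol). Groups came from the labels. All 12 libraries entered 1 fit with 4 groups in edgeR 4.0.16 (R 4.3.3): filterByExpr, TMM factors, quasi-likelihood test, p below 0.01 and Benjamini-Hochberg adjusted p below 0.05 over 31109 genes, the threshold of the study. Contrasts were the lesion in each genotype, their average, the genotype in each condition, and the interaction. Standard errors are the log2 fold change over the root of the quasi-likelihood F. Alternatives were DESeq2 1.42.0, limma 3.58.1 voom with sample weights, other size factors, no filter, the newer quasi-likelihood method, the groups compared alone, a replicate block and 12 fits without 1 library. Scripts were tested on simulated data. The 10 genes, the other lists and the tests were chosen with earlier results of these data known. Of each other list the 3 genes with the smallest p in the average are named, except some that are not reported here, and of the genes most like Gfap and Aldh1l1 the first 5; 0.5 was added to CPM on the log2 scale for the level relative to resting genes and a prior count of 2 was used for likeness.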

Additional observations from a re-analysis of the deposited data

How the results depend on the processing

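In the average of both genotypes the calls of Gfap, Serpina3n and Osmr held in each of the 12 fits without 1 library and in all 6 other settings that could be run for it. The count of members called after lesion in control stayed at 3 to 5 in the other settings and ran from 0 to 5 without 1 library. Over all genes the calls in control ran from 613 up and 549 down with the groups compared alone to 4836 and 4827 with voom. In mutant the count of members was 1 and became 4 with DESeq2, with the newer quasi-likelihood method (legacy = FALSE) and with voom, and 2 without the filter or with the groups compared alone, and ran from 0 to 3 without 1 library. Over all genes 7 were called up and 35 down in mutant in the main fit. With DESeq2 1333 were called up and 3962 down, with the newer method 1374 and 3056, and with voom 3495 and 3305. Without the filter 317 were called up and 630 down, and with the groups compared alone 40 and 732. In the average the count of members was 3 and became 5 without the filter, where 5351 of 51033 genes were called up and 7763 down. Voom also called Vim in the average (0.63, adjusted p = 0.0137), where 6382 of 31109 genes were called up and 8043 down. In unlesioned cord between genotypes the count of members was 0 and became 1 with DESeq2. The cause of these changes in count was not tested. Signs changed for these values, which were not called with the changed sign. Without the filter Cd44 was at 0.035 (control), 0.024 (mutant), 0.03 (average) and -0.011 (interaction), and between genotypes at 4dpl Gfap was at -0.061, Serpina3n at -0.078 and Steap4 at -0.063. With voom Cd44 was at 0.345, 0.078, 0.212 and -0.266 in those contrasts and 0.175 between unlesioned genotypes, Steap4 at 0.39 in the average, and Gfap at -0.038 and Serpina3n at -0.186 at 4dpl. With DESeq2 and with RLE factors Cd44 had an interaction of -0.093, and at 4dpl Gfap was at -0.013, Serpina3n at -0.026 and Steap4 at -0.024 and -0.025.

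Without 1 library, signs changed within these ranges. After lesion in control S100b ran from -0.015 to 0.358, Cd44 from -0.38 to 0.582 and Steap4 from -0.302 to 1.467. After lesion in mutant Gja1 ran from -0.493 to 0.21 and Cd44 from -0.526 to 0.353. In the average Cd44 ran from -0.287 to 0.276 and Steap4 from -0.325 to 0.566. Between unlesioned genotypes Cd44 ran from -0.553 to 0.464 and Osmr from -0.339 to 0.401. Between genotypes at 4dpl Gfap ran from -0.191 to 0.213, Serpina3n from -0.367 to 0.244, Aqp4 from -0.166 to 0.374, Gja1 from -0.32 to 0.277, Cd44 from -0.644 to 0.073 and Steap4 from -0.365 to 0.19. In the interaction Vim ran from -0.533 to 0.093, Aldh1l1 from -0.486 to 0.148 and Cd44 from -0.612 to 0.406. The groups compared alone took the call of Gja1 in control (adjusted p = 0.0539 in edgeR), and voom called Steap4 in control at 1.19.

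The replicate numbers of the labels are not all those that the count columns carry, so a shared number may not mark a shared animal. Same-numbered libraries of a genotype were compared by their deviations from group means: r over all 31109 genes was 0.189, 0.052 and 0.189 in control and -0.03, 0.073 and -0.07 in mutant, with 4 of 6 libraries going best with their own number. Over the 10116 genes with a mean log2 CPM of at least 3 it was 0.359, 0.251 and 0.32 in control and 0.296, 0.546 and 0.127 in mutant, with 5 of 6. The outcome thus differed with the genes used. According to the study the unlesioned tissue came from the side opposite to the lesion, but no source states which libraries share an animal. Whether the numbers pair the libraries is therefore not settled, and the fit without the block was kept. The replicate block left 4 and 1 members called in control and mutant and made the average 4, by Aldh1l1 (0.71, adjusted p = 0.0275 in edgeR). Over all genes the block called 2337 up and 1507 down in control and 4 up and 0 down in mutant. In the average it called 4863 up and 4874 down. With the block Cd44 was at 0.096 in control, 0.008 in the average and -0.176 in the interaction, and Steap4 at 0.138 in the average.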
